A study of Mus musculus with 8 samples.

Results

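The genes described here are 10 genes of the YAP and TEAD pathway, *Yap1*, *Wwtr1*, *Tead1*, *Vgll3*, *Ccn1*, *Ccn2*, *Ankrd1*, *Amotl2*, *Lats2* and *Ajuba*. They were picked by symbol from the 50600 genes of a bulk RNA-seq count table, and all 10 passed the filter on low counts that 14497 genes passed. The table holds 8 libraries from cultured mouse malignant peripheral nerve sheath tumor (MPNST) cells, with 2 replicates in each of 4 groups. NF1-MET is a line from an MPNST of a mouse with the genotype Nf1 fl/ko, lox-stop-lox MET tg/+ and Plp-creERT tg/+, in which *Met* is amplified and the Cre enzyme was expressed under a promoter of Schwann cells. NF1-MET;sgP53 was made from this line with a CRISPR guide against *Trp53* in a lentiviral vector, followed by selection of transduced cells, so all 4 groups share the *Nf1* and *MET* alleles. Each line was given DMSO (vehicle) or 100 nM capmatinib, a MET kinase inhibitor, for 24 h. Each genotype is 1 line, so p53 loss and other differences between the lines cannot be told apart. The column names of the NF1-MET libraries contain the letters EV, and the methods of the study describe cells given the empty vector as a control, but whether these libraries came from them was not given in the sources used here. Cells of each line were treated in duplicate in a 6-well plate, and whether the duplicates were grown as separate cultures before plating was not given, so p-values measure only the spread between these libraries.

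YAP (encoded by *Yap1*) and TAZ (encoded by *Wwtr1*) are transcriptional coactivators without a DNA-binding domain of their own. The Hippo kinases STK3 and STK4 activate LATS1 and LATS2, which phosphorylate YAP and TAZ and so hold them in the cytoplasm. When not phosphorylated, YAP and TAZ enter the nucleus and bind TEAD factors such as TEAD1 on DNA. *Ccn1*, *Ccn2* and *Ankrd1* are the transcripts most widely used as readouts of this complex, while *Lats2*, *Amotl2* and *Ajuba* belong to feedback on it. In the Schwann cell lineage YAP and TAZ act with TEAD1 in myelination, and combined loss of *Lats1* and *Lats2* in that lineage of mice is known to give nerve sheath tumors. RNA-seq measures the transcripts and does not show where YAP and TAZ proteins lie or whether they are phosphorylated.

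TEAD factors bind a short sequence whose core is GGAATG, read as CATTCC on the opposite strand. Promoter sequences from RefSeq (build GRCm38.p6, 250 bases before a start site) were found for 8 of the 10 genes and not for *Ccn2* and *Tead1*. The core was present on either strand in the promoters of 7 of these 8 genes, and it was not present in either of the *Lats2* promoters. Over the whole promoter table, 12.6% of 32851 promoters held it, or 14.4% of 27025 genes with any of their promoters counted. It was present in 5 of 12 paralogues of the 10 genes and in 3 of 11 further genes known as YAP and TAZ targets. The sites are shown because the genes share them by sequence rather than by expression. Each is written 5′ to 3′ in the direction of its gene, with 10 bases to either side and the core in capitals, and the number of bases from the first base of the core to the start site is given after the name.
Ccn1, 103: cgccaaccaaCATTCCtgagatgttt
Vgll3, 63: cgcctccccaCATTCCggctaccctg
Amotl2, 65: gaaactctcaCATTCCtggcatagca
Ajuba, 186: ttgatggataCATTCCacagtgcccc
Ajuba, 164: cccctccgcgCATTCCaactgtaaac
Ankrd1, 210: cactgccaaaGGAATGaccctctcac
Ankrd1, 123: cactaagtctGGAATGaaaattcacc
Yap1, 141: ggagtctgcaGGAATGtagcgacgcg
Wwtr1, 136: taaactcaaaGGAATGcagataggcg
*Ajuba* and *Ankrd1* carried the core at 2 places, and the *Wwtr1* site lies in both of that gene's overlapping promoters. The *Ankrd1* and *Amotl2* sites lie inside exons of the same genes in the GENCODE M21 annotation, where transcripts start further upstream. The AP-1 motif TGANTCA, searched on both strands and present in 6.75% of all promoters (7.82% of genes), was found in none of the 8 genes. The CArG box, present in 1.47% of all promoters (1.62% of genes), was found in none of them either. With shares this low, absence from 8 genes says little. A match describes the sequence and does not show that a factor was bound.

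The promoter of *Ccn1*, the member with the highest level per length in vehicle, is given whole (chr3:145649986-145650235, minus strand), followed by that of *Vgll3*, chosen after its values were seen (chr16:65814939-65815188, plus strand). Neither stretch overlaps an annotated exon.
Ccn1: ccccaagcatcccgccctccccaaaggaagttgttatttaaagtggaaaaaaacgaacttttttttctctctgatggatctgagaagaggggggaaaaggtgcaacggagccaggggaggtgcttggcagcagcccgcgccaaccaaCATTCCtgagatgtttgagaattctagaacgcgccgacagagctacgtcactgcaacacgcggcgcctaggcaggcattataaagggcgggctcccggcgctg
Vgll3: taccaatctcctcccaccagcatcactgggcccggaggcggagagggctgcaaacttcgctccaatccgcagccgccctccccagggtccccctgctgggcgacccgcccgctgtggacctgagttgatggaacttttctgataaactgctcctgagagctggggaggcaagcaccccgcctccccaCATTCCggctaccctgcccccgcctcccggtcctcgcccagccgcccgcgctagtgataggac

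Library totals lay between 30.1 and 42.8 M counts, and scaling factors from edgeR's TMM method between 0.898 and 1.10. Levels are in counts per M scaled counts (CPM). As a check of the labels, *Trp53* was at 182 and 193 CPM (vehicle) and 126 and 128 CPM (capmatinib) in the NF1-MET libraries, and at 97.5 and 100.1 CPM (vehicle) and 68.0 and 68.8 CPM (capmatinib) in those of NF1-MET;sgP53 (edgeR adjusted p = 2.48e-14 and 4.78e-13 between the lines). A non-coding gene, *Gm42418*, held 1.11% to 13.1% of a library's counts and differed between replicates. Without it, all calls for the 10 genes were the same. Defining markers of Schwann cells were near 0, with *Sox10*, *S100b* and *Ngfr* below 1 CPM in all libraries. Of 8 markers of mesenchymal cells, *Pdgfra*, *Pdgfrb*, *Col1a1* and *Col1a2* had group means of 181 CPM or more in every group, while *Dcn* (0.635 to 1.61 CPM), *Thy1* (0.934 to 3.91 CPM) and *Lum* (0 to 0.0142 CPM) were low and *Postn* was at 7.36 and 13.7 CPM in vehicle.

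Per kb of exon, *Ccn1* and *Ccn2* had the highest levels of the 10 genes in every group. In NF1-MET with vehicle the order of group means was *Ccn1* (131 CPM per kb), *Ccn2* (95.5), *Wwtr1* (49.2), *Tead1* (43.4), *Amotl2* (19.2), *Yap1* (16.5), *Ankrd1* (13.5), *Ajuba* (12.7), *Lats2* (8.83) and *Vgll3* (6.55). No neighbours in this order overlapped between their libraries. With capmatinib *Ccn2* was first (966 CPM per kb), ahead of *Ccn1* (778), and *Vgll3* moved from last to sixth place (58.9). In NF1-MET;sgP53 with capmatinib the order was the same down to *Wwtr1* in seventh place, and only *Yap1* (22.7) and *Ajuba* (22.7) overlapped with each other there.

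**Figure D1:**
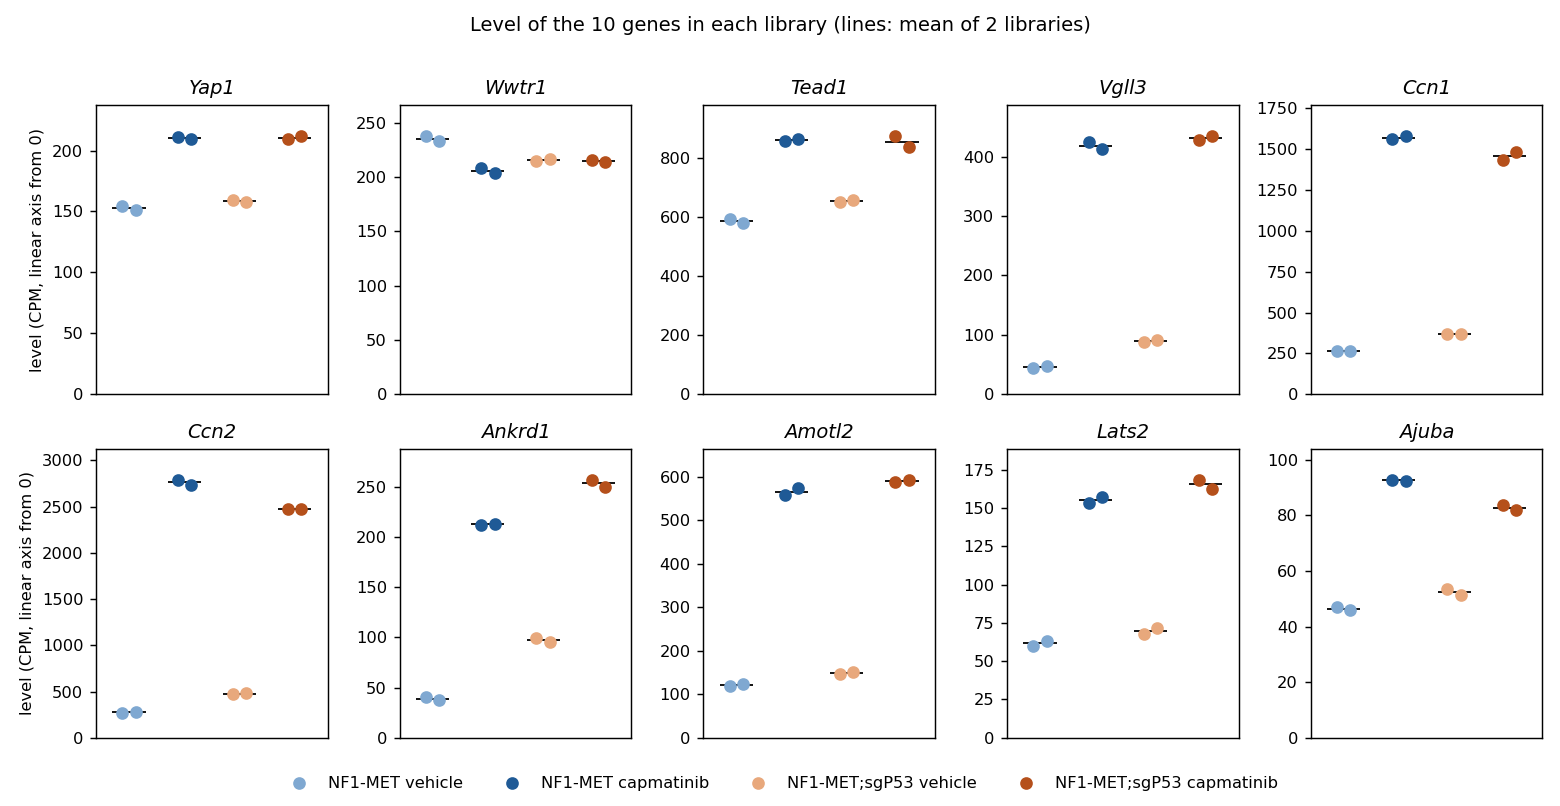
Level of each of the 10 genes in CPM (linear axis from 0, with its own scale in each panel) in the 8 libraries; points are libraries and lines the mean of 2 libraries. Both capmatinib groups stand far above both vehicle groups for *Vgll3*, *Ccn1*, *Ccn2*, *Ankrd1* and *Amotl2*, while *Wwtr1* varies between 204 and 238 CPM.

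The first comparison asked how the pathway's transcripts responded to inhibition of MET. In NF1-MET, capmatinib raised 9 of the 10 genes and lowered *Wwtr1*, with a median log2 fold change of 1.76 over the 10. Over all genes tested, 35.5% were called higher and 34.7% lower, with a median of 0.00, so a call alone was common. With library totals in place of TMM factors the median of all genes was -0.18 and the calls that were higher made up 35.5% of calls in place of 50.5%, and the 10 genes kept their calls. In NF1-MET;sgP53, 9 genes were again higher, *Wwtr1* was not called, and the median was 1.32, against 34.2% of all genes higher and 33.4% lower (50.6% of calls higher, and 39.8% with library totals). In bulk libraries a change in the share of some cells and a change of RNA in each cell cannot be told apart.

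*Yap1* (ENSMUSG00000053110, mm10 chr9:7931999-8004596, minus strand) encodes the coactivator YAP. The NF1-MET libraries had 155 and 151 CPM (vehicle) and 211 and 209.6 CPM (capmatinib), and the NF1-MET;sgP53 libraries 159 and 158 CPM (vehicle) and 209 and 212 CPM (capmatinib). All capmatinib libraries lay above all vehicle libraries. The rise was 1.36-fold in NF1-MET (log2 fold change 0.44, SE 0.0266, edgeR adjusted p = 7.13e-16) and 1.33-fold in NF1-MET;sgP53 (0.41, SE 0.0310, edgeR adjusted p = 8.31e-11). With library totals the value in NF1-MET was 0.26 (SE 0.0570).

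*Wwtr1* (ENSMUSG00000027803, chr3:57455649-57575910, minus strand) encodes TAZ, the paralogue of YAP. In NF1-MET it stood at 238 and 233 CPM (vehicle) against 208 and 204 CPM (capmatinib), and in NF1-MET;sgP53 at 215 and 217 CPM (vehicle) against 215 and 214 CPM (capmatinib). The NF1-MET vehicle libraries were the highest, and the NF1-MET;sgP53 groups overlapped. It fell by 0.21 on the log2 scale in NF1-MET (SE 0.0252, edgeR adjusted p = 8.16e-09), and its change in NF1-MET;sgP53 was -0.01 (SE 0.0303, edgeR adjusted p = 0.792). With library totals the value in NF1-MET was -0.39 (SE 0.0564), so its size depends on the scaling. Per length, the ratio of *Wwtr1* to *Yap1* transcript was 2.97 and 2.98 in the NF1-MET libraries with vehicle and 1.91 and 1.88 in those with capmatinib. The ratio in NF1-MET;sgP53 was 2.64 ± 0.0341 (vehicle) and 1.97 ± 0.0281 (capmatinib, SD, n = 2), and in neither line did vehicle and capmatinib libraries overlap.

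*Tead1* (ENSMUSG00000055320, chr7:112679318-112906807, plus strand) encodes a DNA-binding partner of YAP and TAZ. The NF1-MET libraries had 596 and 582 CPM (vehicle) and 859 and 865 CPM (capmatinib), and those of NF1-MET;sgP53 had 653 and 658 CPM (vehicle) and 875 and 838 CPM (capmatinib). The vehicle libraries of the lines did not overlap, whereas the capmatinib libraries did. Capmatinib raised *Tead1* 1.45-fold in NF1-MET (log2 fold change 0.53, edgeR adjusted p = 6.74e-21) and 1.31-fold in NF1-MET;sgP53 (edgeR adjusted p = 1.16e-11), and the log2 value in NF1-MET was 0.35 with library totals.

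The other TEAD genes changed in different directions. *Tead3* rose from 24.2 and 26.3 CPM to 75.2 and 76.7 CPM in NF1-MET (log2 fold change 1.57, edgeR adjusted p = 1.27e-24) and by 1.40 in NF1-MET;sgP53 (edgeR adjusted p = 1.72e-17). *Tead4* fell from 56.6 and 56.2 CPM to 19.4 and 19.9 CPM in NF1-MET (log2 fold change -1.54, edgeR adjusted p = 3.04e-23) and changed by -1.19 in NF1-MET;sgP53 (edgeR adjusted p = 5.53e-15). *Tead2* changed by -0.33 and -0.27 (edgeR adjusted p = 1.7e-07 and 1.26e-05). Per length, *Tead1* made up 59.5% ± 0.744 (vehicle) and 71.8% ± 0.465 (capmatinib) of the summed TEAD transcript in NF1-MET, and *Tead4* made up 21.5% ± 0.0199 and 6.17% ± 0.0364 (SD, n = 2). The share of *Tead4* in NF1-MET;sgP53 was 16.2% ± 0.0407 (vehicle), below both NF1-MET vehicle libraries, and 6.00% ± 0.0176 (capmatinib). The mean sum of the TEAD genes was 73.0 (vehicle) and 88.5 CPM per kb (capmatinib) in NF1-MET, against 73.2 and 86.5 CPM per kb in NF1-MET;sgP53.

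**Figure D2:**
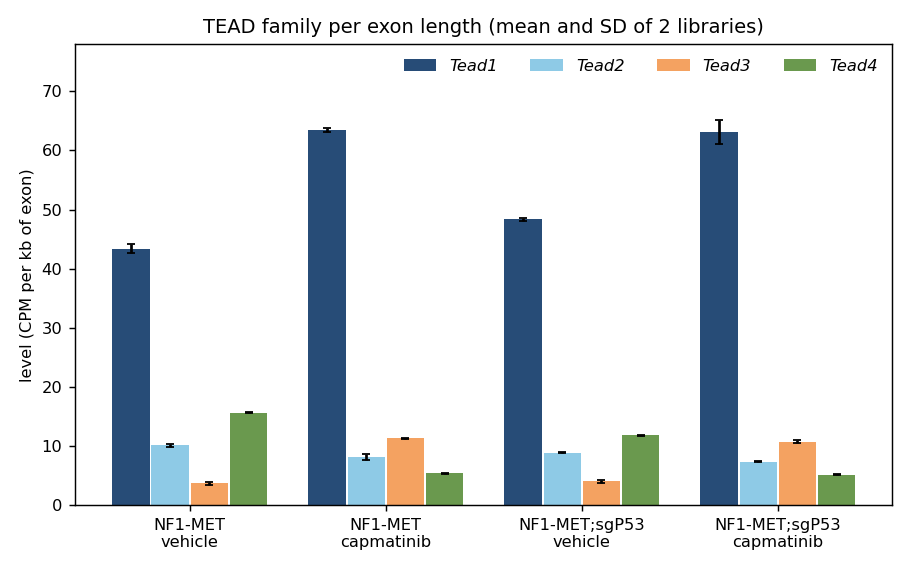
Level of the TEAD genes in CPM per kb of exon in the 4 groups (bars: mean of 2 libraries; error bars: SD). *Tead1* is the highest in all 4 groups, and *Tead4* ranks second in vehicle (15.7 and 11.8 CPM per kb) and last in capmatinib (5.46 and 5.19).

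*Vgll3* (ENSMUSG00000091243, chr16:65815257-65866368, plus strand) encodes a cofactor that binds TEAD factors in place of YAP and TAZ. Vehicle libraries had 44.8 and 48.2 CPM (NF1-MET) and 87.6 and 91.1 CPM (NF1-MET;sgP53), and capmatinib libraries 424 and 413 CPM (NF1-MET) and 428 and 435 CPM (NF1-MET;sgP53). The lines stood well apart in vehicle and close together in capmatinib. The rise was 8.88-fold in NF1-MET (log2 3.15, SE 0.0309, edgeR adjusted p = 2.55e-37) and 4.82-fold in NF1-MET;sgP53 (2.27, SE 0.0326, edgeR adjusted p = 1.23e-23). Of the paralogues, *Vgll4* rose by 1.08 and 1.19 on the log2 scale, and *Vgll1* and *Vgll2* had no CPM value above 0 in any library.

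*Ccn1* (formerly *Cyr61*, ENSMUSG00000028195, chr3:145646976-145649981, minus strand) and *Ccn2* (formerly *Ctgf*, ENSMUSG00000019997, chr10:24595442-24598683, plus strand) encode secreted proteins of the extracellular matrix. Vehicle libraries had 268 and 263 CPM (NF1-MET) and 368 and 370.3 CPM (NF1-MET;sgP53) of *Ccn1*, and capmatinib libraries 1561 and 1579 CPM (NF1-MET) and 1434 and 1481 CPM (NF1-MET;sgP53). For *Ccn2* the vehicle libraries had 273.1 and 273.6 CPM (NF1-MET) and 475 and 481 CPM (NF1-MET;sgP53), and the capmatinib libraries 2793 and 2733 CPM (NF1-MET) and 2470.2 and 2472 CPM (NF1-MET;sgP53). For both genes NF1-MET had the lower level in vehicle and the higher level in capmatinib, with no overlap between groups. With library totals in place of TMM factors the difference between the lines in capmatinib was not called for either gene, at 0.01 for *Ccn1* and -0.05 for *Ccn2* on the log2 scale (edgeR adjusted p = 0.964 and 0.811). *Ccn2* had the largest rise of the 10 genes, 9.99-fold in NF1-MET (log2 fold change 3.32, SE 0.0197, edgeR adjusted p = 4.3e-43) and 5.17-fold in NF1-MET;sgP53 (2.37, SE 0.0216, edgeR adjusted p = 7.37e-27). *Ccn1* rose 5.86-fold (edgeR adjusted p = 2.12e-39) and 3.95-fold (edgeR adjusted p = 1.17e-24). Ordered by log2 fold change in NF1-MET, *Ccn2* stood at place 207 and *Ccn1* at place 359 of 14496 genes. Exons of the antisense gene *Gm15270* cover 23.2% of the *Ccn2* exon bases, and since the strand setting of the counts was not given in the sources used here, reads of the genes may not be separable. *Gm15270* itself had 78 to 644 counts where *Ccn2* had 9912 to 104970.

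Among the other CCN genes, *Ccn5* had the largest response of all paralogues examined. Vehicle libraries had 0.964 and 0.727 CPM (NF1-MET) and 2.85 and 2.29 CPM (NF1-MET;sgP53), and capmatinib libraries 70.3 and 66.9 CPM (NF1-MET) and 95.5 and 99.1 CPM (NF1-MET;sgP53). NF1-MET;sgP53 was the higher line under both treatments. The rise was 6.33 (edgeR adjusted p = 1.17e-32) and 5.25 (edgeR adjusted p = 8.34e-25) on the log2 scale in NF1-MET and the sgP53 line. *Ccn4* rose by 1.65 and 1.27 (edgeR adjusted p = 5.64e-30 and 3.13e-19), and *Ccn3*, with group means of 0.315 to 1.23 CPM per kb, was lower in both lines (-0.81 and -0.50, edgeR adjusted p = 0.00892 and 0.0115).

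*Ankrd1* (ENSMUSG00000024803, chr19:36111961-36120099, minus strand) encodes an ankyrin repeat protein of muscle sarcomeres and the nucleus. Its level in vehicle was 40.4 and 37.4 CPM (NF1-MET) and 99.0 and 95.2 CPM (NF1-MET;sgP53), and in capmatinib 212 and 213 CPM (NF1-MET) and 257 and 250.2 CPM (NF1-MET;sgP53). All groups stood apart, with the sgP53 line above NF1-MET under either treatment. The rise with capmatinib was 5.41-fold in NF1-MET (log2 fold change 2.43, SE 0.0335, edgeR adjusted p = 2.36e-33) and 2.61-fold in NF1-MET;sgP53 (1.39, SE 0.0333, edgeR adjusted p = 1.25e-19).

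*Amotl2*, *Lats2* and *Ajuba* encode regulators that act back on the pathway. Angiomotin-like 2 (*Amotl2*, ENSMUSG00000032531, chr9:102716672-102733418, plus strand) binds YAP at junctions and actin. Its level in vehicle was 118 and 124 CPM (NF1-MET) and 146 and 150.3 CPM (NF1-MET;sgP53), and in capmatinib 559 and 574 CPM (NF1-MET) and 589 and 594 CPM (NF1-MET;sgP53). No groups overlapped. Its rise of 4.62-fold in NF1-MET (edgeR adjusted p = 4.94e-35) and 3.99-fold in NF1-MET;sgP53 (edgeR adjusted p = 3.02e-23) was the largest of the 3. Its paralogues moved far less, *Amot* by 0.19 and 0.28 and *Amotl1* by 0.07 and -0.04 on the log2 scale in NF1-MET and NF1-MET;sgP53, the last of which was not called (edgeR adjusted p = 0.29).

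*Lats2* (ENSMUSG00000021959, chr14:57689662-57758388, minus strand) encodes a kinase of YAP and TAZ. Its level in vehicle was 60.1 and 63.0 CPM (NF1-MET) and 67.9 and 71.6 CPM (NF1-MET;sgP53), and in capmatinib 153 and 157 CPM (NF1-MET) and 169 and 162 CPM (NF1-MET;sgP53). The lines stood close together under either treatment, without overlap. The rise was 2.49-fold in NF1-MET (edgeR adjusted p = 8.72e-27) and 2.37-fold in NF1-MET;sgP53 (edgeR adjusted p = 8.13e-18). *Lats1* was not called in either line (-0.02 and -0.01, edgeR adjusted p = 0.641 and 0.851). *Gm49361*, annotated on the same strand, shares 42.4% of the *Lats2* exon bases. No counts of *Gm49361* were found in the table used here, and how reads shared by the genes were counted was not given, so the level of *Lats2* is uncertain.

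*Ajuba* (ENSMUSG00000022178, chr14:54567472-54577558, minus strand) encodes a LIM-domain protein that binds LATS kinases at junctions. Its level in vehicle was 47.1 and 45.8 CPM (NF1-MET) and 53.7 and 51.5 CPM (NF1-MET;sgP53), and in capmatinib 92.8 and 92.3 CPM (NF1-MET) and 83.6 and 81.8 CPM (NF1-MET;sgP53). NF1-MET had the lower level in vehicle and the higher level in capmatinib, but the first difference was lost with DESeq2's Wald test (adjusted p = 0.0769) and the second with library totals (edgeR adjusted p = 0.797). It rose 1.97-fold in NF1-MET (edgeR adjusted p = 1.18e-21) and 1.57-fold in NF1-MET;sgP53 (edgeR adjusted p = 1.94e-13). Its relatives *Limd1* (-0.08 and -0.15) and *Wtip* (0.60 and 0.47) had smaller log2 fold changes.

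**Figure D3:**
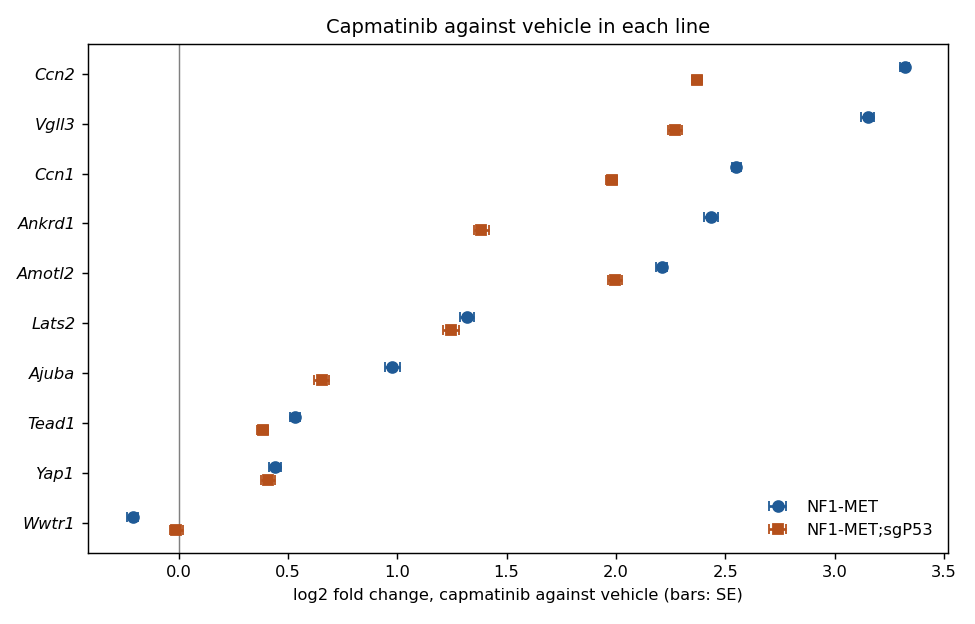
Log2 fold change of the 10 genes with capmatinib against vehicle in NF1-MET (circles) and NF1-MET;sgP53 (squares), with bars for the SE from edgeR's test. In 9 of the 10 genes the point lies above 0 in both lines, from 0.38 to 3.32.

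The comparison of NF1-MET;sgP53 with NF1-MET asked how p53 status bears on these transcripts. In vehicle, 8 of the 10 genes were higher in NF1-MET;sgP53, *Wwtr1* was lower, and *Yap1* was not called. Over all genes tested, 10.9% were higher and 12.3% lower (47.1% of calls higher, and 63.3% with library totals), and the median log2 fold change was 0.22 over the 10 genes against 0.00 over all. *Ankrd1* differed most, 2.46-fold (log2 fold change 1.30, SE 0.0382, edgeR adjusted p = 1.88e-15). *Vgll3* was higher by 0.92 (edgeR adjusted p = 4.22e-13), *Ccn2* by 0.79 (edgeR adjusted p = 4.81e-15) and *Ccn1* by 0.46 (edgeR adjusted p = 3.84e-11) on the log2 scale. The remaining differences were small, with log2 fold changes of 0.27 for *Amotl2*, 0.16 for *Lats2*, 0.16 for *Ajuba*, 0.14 for *Tead1* and -0.14 for *Wwtr1* (edgeR adjusted p from 1.84e-06 to 0.00636). *Yap1* differed by 0.03 (SE 0.0282, edgeR adjusted p = 0.482). Of the 7 mesenchymal markers tested, 6 were also higher in NF1-MET;sgP53 and 0 lower (median 0.40), and of the 6 genes that report ERK signalling 5 were lower (median -0.28). The part of these transcripts in the difference was not tested. With library totals in place of TMM factors the call for *Wwtr1* was lost (-0.08, edgeR adjusted p = 0.478) and that for *Ajuba* was kept (0.22, edgeR adjusted p = 0.0297), the latter being lost with DESeq2's Wald test (adjusted p = 0.0769).

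In capmatinib the lines differed less. *Ankrd1* was higher in NF1-MET;sgP53, by 0.26 on the log2 scale (SE 0.0282, edgeR adjusted p = 4.92e-06). *Ccn1* (-0.11, edgeR adjusted p = 0.000863), *Ccn2* (-0.16, edgeR adjusted p = 7.05e-07) and *Ajuba* (-0.16, edgeR adjusted p = 0.00102) were lower. Of all genes, 5.94% were higher and 6.34% lower, so that 48.4% of calls were higher, against 80.6% with library totals. The other 6 genes were not called, with log2 fold changes of -0.01 for *Tead1*, 0.00 for *Yap1*, 0.04 for *Vgll3*, 0.06 for *Amotl2*, 0.06 for *Wwtr1* and 0.09 for *Lats2* (edgeR adjusted p from 0.0786 to 0.969). Of the 7 mesenchymal markers, 4 were higher and 1 lower, and of the 6 ERK genes 3 were lower. With library totals the call for *Ankrd1* was the only one of the 4 left, and *Ccn1* changed sign to 0.01, while *Ccn2* (-0.05) and *Ajuba* (-0.05) stayed negative without a call (edgeR adjusted p = 0.811 and 0.797). *Lats2* was called higher when replicate 2 of NF1-MET;sgP53 with capmatinib was left out (0.13, edgeR adjusted p = 0.0245).

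**Figure D4:**
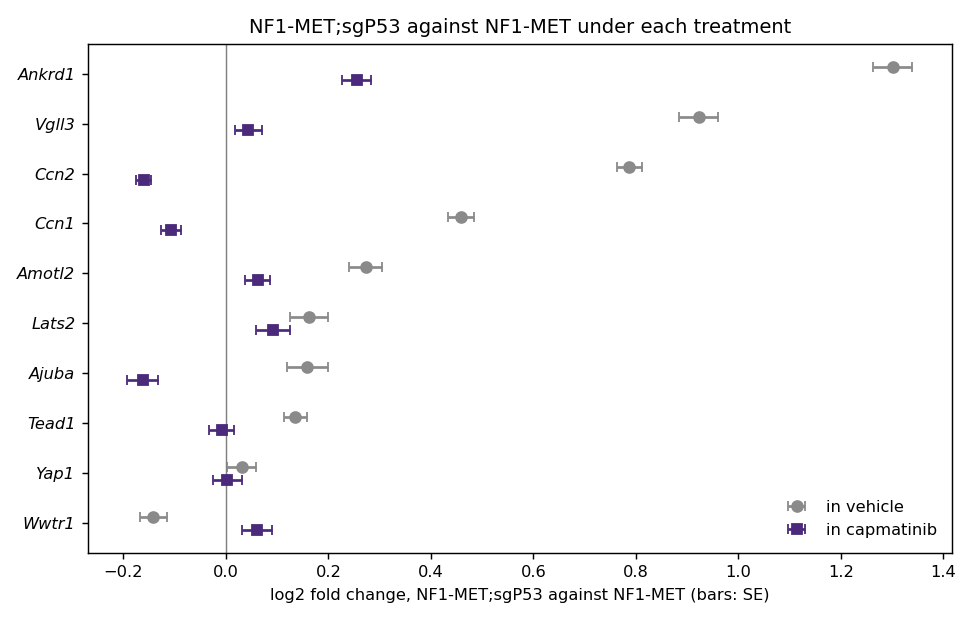
Log2 fold change of the 10 genes between NF1-MET;sgP53 and NF1-MET in vehicle (circles) and in capmatinib (squares), with bars for the SE from edgeR's test. *Ankrd1*, *Vgll3*, *Ccn2* and *Ccn1* lie between 0.46 and 1.30 in vehicle and between -0.16 and 0.26 in capmatinib.

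Whether the lines responded to capmatinib to different degrees was tested by the interaction of line and treatment, fitted to all 8 libraries. The rise was smaller in NF1-MET;sgP53 for 7 of the 10 genes. The value for *Wwtr1* was above 0, since its fall in NF1-MET had no called counterpart in NF1-MET;sgP53, while *Lats2* and *Yap1* were not called, with interaction values of -0.09 (edgeR adjusted p = 0.311) and -0.05 (edgeR adjusted p = 0.535). Of all genes, 5.86% had a lower (849 genes) and 3.85% a higher value (558 genes) by this test. This balance turned with library totals (123 lower and 192 higher), without *Gm42418* (612 and 873) and without replicate 2 of NF1-MET;sgP53 with capmatinib (509 and 713). The median interaction was -0.29 over the 10 genes and -0.03 over all. The values were -1.07 for *Ankrd1* (SE 0.0492, edgeR adjusted p = 8.08e-14), -0.97 for *Ccn2* (SE 0.0268, edgeR adjusted p = 2.19e-18), -0.90 for *Vgll3* (SE 0.0450, edgeR adjusted p = 3.67e-13) and -0.58 for *Ccn1* (SE 0.0316, edgeR adjusted p = 1.61e-12). These 4 genes kept their call under every alternative tried. Smaller values of -0.34 for *Ajuba*, -0.23 for *Amotl2*, -0.16 for *Tead1* and 0.18 for *Wwtr1* were called with TMM factors (edgeR adjusted p from 1.98e-05 to 0.00209) but not with library totals (edgeR adjusted p from 0.277 to 0.88), where the values were -0.26 for *Ajuba*, -0.15 for *Amotl2*, -0.09 for *Tead1* and 0.26 for *Wwtr1* and their SEs 0.108 to 0.111. The call for *Tead1* was also lost when replicate 2 of NF1-MET;sgP53 with capmatinib was left out (-0.10, edgeR adjusted p = 0.0917). The interaction shares its libraries with the comparisons above, so its values are another view of the same counts.

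The counts of the further lists stand beside 35.5% of all genes higher and 34.7% lower with capmatinib in NF1-MET, and 34.2% higher and 33.4% lower in NF1-MET;sgP53. Of the upstream kinases and scaffolds of the Hippo pathway, 9 of 17 genes were higher and 6 lower with capmatinib in NF1-MET, with a median log2 fold change of 0.10. In NF1-MET;sgP53, 10 were higher and 6 lower, and in both lines the share of lower genes was near that over all genes. *Stk3*, which encodes a kinase that activates LATS, was lower (-0.92 in NF1-MET, -0.48 in the sgP53 line, edgeR adjusted p = 6.77e-23 and 5.71e-11). *Wwc1*, which encodes the scaffold KIBRA, was lower too (-0.90 and -0.65), as was the kinase gene *Mink1* (-0.76 and -0.56), while *Wwc2* was higher (0.66 and 0.49). None of these reached the sizes seen in *Ccn1*, *Ccn2* or *Vgll3*.

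Of the junction and membrane regulators, 9 of 11 genes tested were higher in NF1-MET and 1 lower, with a median of 0.73, and in NF1-MET;sgP53 7 were higher and 2 lower. The atypical cadherin genes *Fat4* (2.49 and 2.44) and *Fat1* (1.39 and 1.05) rose, as did *Rassf5* (2.18 and 1.48) and *Frmd6*, whose product acts upstream of LATS (1.08 and 0.84). Paired values are log2 fold changes with capmatinib, that of NF1-MET first.

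Further genes known as YAP and TAZ targets did not move in a common direction. Of 16 genes, 9 were higher and 4 lower in NF1-MET (median 0.20), and 9 were higher and 5 lower in the sgP53 line (median 0.18). *Tgfb2*, which encodes a TGF-beta ligand, rose by 3.70 and 3.54 (edgeR adjusted p = 2.87e-27 and 3.02e-20), and *F3*, which encodes tissue factor, by 3.15 and 3.04. *Igfbp3*, which encodes an insulin-like growth factor binding protein, fell from a mean of 595 to 24.0 CPM in NF1-MET and, in the sgP53 line, from 309 to 25.4 CPM. *Crim1* rose by 1.92 and 1.51.

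**Figure D5:**
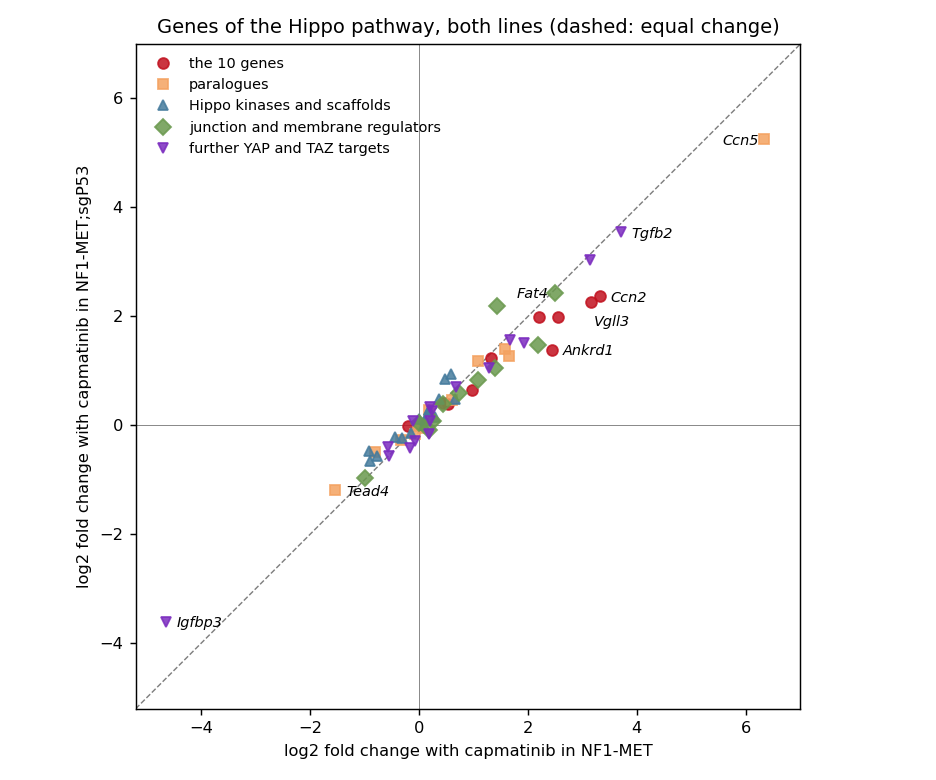
Log2 fold change with capmatinib in NF1-MET (horizontal axis) and in NF1-MET;sgP53 (vertical axis) for the 10 genes and 4 further lists; each point is a gene and the dashed line marks equal change. *Ccn5* (6.33 and 5.25) and *Igfbp3* (-4.64 and -3.60) lie at the ends, and *Ccn2*, *Vgll3* and *Ankrd1* lie below the dashed line.

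Other transcripts moved with the same treatment. Of 6 genes that report ERK signalling, all 6 were lower in NF1-MET and 5 of them in the sgP53 line, where *Spry2* was not called (0.00, edgeR adjusted p = 0.915), and in NF1-MET their summed level was 601 to 605 CPM (vehicle) and 324 to 329 CPM (capmatinib). The sum in NF1-MET;sgP53 was 517 to 519 CPM (vehicle) and 300.4 to 302 CPM (capmatinib). Of 8 mesenchymal markers, 7 were tested, and 5 were higher and 2 lower in NF1-MET and 5 higher and 1 lower in NF1-MET;sgP53. Their sum was 7598 to 7692 CPM and 31188 to 31668 CPM in NF1-MET, and 8942 to 9059 CPM and 30873 to 30930.5 CPM in NF1-MET;sgP53, vehicle first. *Col1a1* and *Col1a2*, which encode the chains of type I collagen, made up 92.0% to 92.2% of the sum in vehicle and 96.4% to 96.8% in capmatinib. *Pdgfra* was lower with capmatinib in both lines (-0.38 and -0.32, edgeR adjusted p = 7.96e-16 and 9.37e-10), and *Dcn* was lower in NF1-MET (-0.86, edgeR adjusted p = 0.0154). The sum over 6 epithelial markers was 0.0551 to 0.802 CPM and that over 6 endothelial and blood markers was 0.867 to 2.29 CPM. The part of these transcripts in the results for the 10 genes was not tested.

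Genes with the most similar profile were found for each of the 10 by the Euclidean distance between log2 CPM values over the 8 libraries, each gene centred on its own mean, among 11776 genes. The 8 libraries share their treatment and line, so the distances are a description. *Csrp1* (distance 0.200) and *Fbln5* (0.245) were nearest to *Ccn1*, and *Mcam* (0.218) and *Gm42778* (0.264) to *Ccn2*. *Dclk1* (0.185) was nearest to *Vgll3*, *Ggt7* (0.432) and *Casp12* (0.433) to *Ankrd1*, and *Pmp22* (0.152) and *Hspb1* (0.165) to *Amotl2*. *Zbtb4* (0.108) and *Stard5* (0.126) were nearest to *Lats2*, and *Rps6ka2* (0.0764) and *Klf6* (0.119) to *Ajuba*. *Rnf14* (0.0651) and *Slc37a3* (0.0782) were nearest to *Tead1*, *Gnaq* (0.0381) and *Bcar1* (0.0441) to *Yap1*, and *Sin3b* (0.0405) and *Fbxo38* (0.0613) to *Wwtr1*. Within the 10 genes, the smallest distance was that of *Tead1* and *Yap1* (0.130), followed by that of *Ccn2* and *Vgll3* (0.320). By distance from *Vgll3*, *Ccn2* held place 3 among the 11776 genes. By distance from *Tead1*, *Yap1* held only place 59, and from *Yap1*, *Tead1* held place 121. For *Wwtr1* the nearest of the 10 was *Yap1* at 0.778, which held place 7261.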

How the data were processed

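Per the labels the libraries were made from polyA RNA, and per the methods of the study reads were paired-end. The authors demultiplexed reads with bcl2fastq 1.9.0, trimmed them with Trim Galore 0.4.2, checked them with FastQC 0.11.7 and mapped them to mm10 with STAR 2.5.2b, as the submitters' processing notes name these tools. The deposited values are raw counts per gene for 50600 genes in 8 libraries, and every sample column was used. The strand setting and annotation release are not given in the sources used here.

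The filter kept 14497 genes that reached 10 counts in 2 or more libraries, and the genes removed held 0.0396% of counts. With R 4.3.3 and edgeR 4.0.16, TMM factors were computed within a comparison and genes tested with the legacy quasi-likelihood F-test, p-values being adjusted over all tested genes by Benjamini and Hochberg's method. Genes with an adjusted p under 0.05 were called. There were 5 comparisons: capmatinib in each line, the lines under each treatment, and their interaction. The biological coefficient of variation was 2.34% to 4.28%. SEs were derived from the fold change and the F statistic. Library totals, from 30.1 M to 42.8 M counts, set the counting error, and the lowest library count of any of the 10 genes was 1465.

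Positions and exon lengths came from GENCODE M21 (mm10), in which 99.6% of identifiers were found, and promoters from RefSeq. Profiles used log2 CPM with a prior count of 2. All 10 genes were named in every comparison. From each further list the 4 called genes with the largest change in NF1-MET and a mean of at least 1 CPM were named, and for similar profiles the 2 nearest genes (for *Vgll3* only the nearest is given). Some marker and profile results are not reported here. Other paralogues, *Spry2* and the mesenchymal markers were named after their values were seen. The members and lists were chosen with earlier results of these data known. The promoters to be printed were those of the 3 targets with the highest levels, of which *Ccn2* had none and the *Amotl2* promoter overlaps an exon. Proteins were not analysed here. Alternatives were DESeq2 1.42.0 (size factors and Wald test), library totals, no filter and a stricter one, all libraries in 1 model, a replicate block, omission of *Gm42418*, and each library left out.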

Additional observations from a re-analysis of the deposited data

Results flagged for a closer look

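The response to capmatinib differed between NF1-MET and NF1-MET;sgP53, by the interaction of line and treatment in edgeR's quasi-likelihood test, for 8 of the 10 genes, against 9.71% of all genes, and for 4 of the 10 with library totals in place of TMM factors. A negative value means a lower log2 fold change with capmatinib in NF1-MET;sgP53. Values were -0.58 for *Ccn1*, -0.97 for *Ccn2*, -1.07 for *Ankrd1*, -0.90 for *Vgll3*, -0.23 for *Amotl2*, -0.34 for *Ajuba*, -0.16 for *Tead1* and 0.18 for *Wwtr1*, of which those for *Amotl2*, *Ajuba*, *Tead1* and *Wwtr1* were the calls lost (-0.15, -0.26, -0.09 and 0.26 with library totals, edgeR adjusted p from 0.277 to 0.88).

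The same test called 24 of the 62 genes tested in the further pathway and ERK lists, against 9.71% of all genes. The 20 genes named from these lists had been picked for the largest changes with capmatinib in NF1-MET, and 14 of them were called. Of the paralogues, *Ccn5* had -1.09, *Ccn4* -0.39 and *Tead4* 0.33. Of the kinases and scaffolds, *Stk3* had 0.43, *Mink1* 0.18 and *Wwc2* -0.18. Of the junction and membrane regulators, *Rassf5* had -0.72, *Fat1* -0.36 and *Frmd6* -0.26. Of the further YAP and TAZ targets, *Igfbp3* had 1.03 and *Crim1* -0.43. Of the ERK output genes, *Dusp4* had 0.34, *Spry4* 0.30 and *Etv4* -0.21. For *Etv4* the fall with capmatinib was larger in NF1-MET;sgP53, whereas for *Igfbp3*, *Dusp4*, *Spry4*, *Stk3*, *Mink1* and *Tead4* it was smaller there. With library totals in place of TMM factors, the calls for *Ccn4*, *Tead4*, *Mink1*, *Wwc2*, *Fat1*, *Frmd6*, *Crim1* and *Etv4* were lost, and those for *Ccn5*, *Stk3*, *Rassf5*, *Igfbp3*, *Dusp4* and *Spry4* were kept.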

How the results depend on the processing

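Over 630 recomputed values of the 10 genes, 619 kept their side of the threshold, and 6 of these, all of values not called (*Wwtr1* for capmatinib in NF1-MET;sgP53, *Tead1* and *Yap1* for the lines in capmatinib, and *Yap1* for the interaction), changed sign. Both capmatinib comparisons kept every call for the 10 genes. With library totals in place of TMM factors the median of all genes moved to -0.18 and -0.12 (capmatinib in NF1-MET and NF1-MET;sgP53) and to 0.06, 0.11 and 0.05 (lines in vehicle, lines in capmatinib, interaction), and the share of calls that were higher moved from 50.5% to 35.5%, 50.6% to 39.8%, 47.1% to 63.3%, 48.4% to 80.6% and 39.7% to 61.0%. For the lines in vehicle, 3355 genes were called, against 2023 with library totals and 1933 with DESeq2's Wald test. For the lines in capmatinib, 1778 were called, against 666 and 870, and 1 of the 10 genes in place of 4 with library totals, where *Ccn1* turned from -0.11 to 0.00972. For the interaction, 1407 were called, against 315 and 894, and 4 of the 10 genes in place of 8 with library totals. The cause was not tested. The share of higher calls in the interaction was 53.6% without the filter, 58.8% without *Gm42418* and 58.3% without NF1-MET;sgP53 capmatinib replicate 2, and for the lines in vehicle 57.2% with all libraries in 1 model and 53.9% to 56.2% with a library left out. For the lines in capmatinib it was 55.1% without NF1-MET;sgP53 capmatinib replicate 2.

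Leaving out each library in turn, in 1 model of the other libraries in which a lone library is assumed to vary like the other groups, gave 1079 to 1332 genes for the lines in capmatinib, the lowest without NF1-MET capmatinib replicate 2. It gave 2482 to 2852 for the lines in vehicle and 970 to 1244 for the interaction. Deviations of same-numbered replicates correlated at -0.0536 to 0.102 between groups, which gives no sign of pairing by number. Whether same-numbered libraries shared a batch was not tested. With the replicate block 10141, 9866, 3994, 1777 and 1524 genes were called in the 5 comparisons and no call for the 10 genes changed.

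With 2 libraries a group, the SE of a log2 fold change of these genes was 0.0152 to 0.0496 with TMM factors. With library totals it was 0.0564 to 0.113. Such SEs limit the detection of small differences between the lines.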
